A study of Mus musculus with 4 samples.

Results

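The nuclear-encoded subunits of the mitochondrial respiratory chain and ATP synthase were compared between 2 kinds of lymphocyte from mouse tumours, natural killer (NK) cells and T cells. Members were chosen by gene symbol alone (Nduf genes of the a, b, c, s and v series, Sdha to Sdhd, Uqcr genes, Cox4 to Cox8 genes and Atp5 genes), with 1 row kept for each symbol. The rule found 96 genes among the 55450 genes of the deposited table. Of these, 39 belonged to complex I, 4 to complex II, 10 to complex III, 21 to complex IV and 22 to complex V. Ndufa4 and Ndufa4l2 carry complex I names but were counted with complex IV, where the Ndufa4 protein is found. Gene copies and pseudogenes made up 11 of the 96.

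CT26, a mouse colon carcinoma line, was grown under the skin of BALB/C mice, a strain in which it is syngeneic, from 500000 live cells in 200 uL of saline. Tumours were dissociated and filtered (70 um), immune cells were enriched on Percoll, and NK or T cells were isolated by flow sorting for total RNA sequencing. Each of the 2 groups, NK and T, had 2 libraries, pool 1 from 4 mice and pool 2 from 6 mice, with no treatment or altered allele given for either. The sources used here do not give the age of the mice, the sort gate or the T cell subsets, and there was no untreated or non-tumour sample.

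The respiratory chain moves electrons from NADH and succinate to oxygen. Complex I (NADH dehydrogenase) and complex II (succinate dehydrogenase) pass electrons to ubiquinone, complex III passes them to cytochrome c, and complex IV (cytochrome c oxidase) hands them to oxygen. Complexes I, III and IV pump protons, and complex V, the ATP synthase, uses the proton gradient to make ATP. Complex II is encoded wholly in the nucleus, while the other complexes combine nuclear subunits with subunits made from mitochondrial DNA. Activated lymphocytes use oxidative phosphorylation together with glycolysis.

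The libraries held 2067728 to 2893240 reads assigned to genes. Values are normalized CPM, read counts scaled to 1 M a library after correction of the library size, where a single read was worth 0.354 to 0.551. NK marker genes summed to 12751 and 9453 normalized CPM in NK pools 1 and 2 and to 194 and 368 in T pools 1 and 2, and T marker genes to 124 and 88.3 against 2948 and 2557, as the labels say. All 12 macrophage markers were detected in both groups, and they summed to 1078 and 243 normalized CPM in NK pools 1 and 2 and to 270 and 28.7 in T pools 1 and 2, so they were higher in NK cells within each pool and higher in pool 1 within each cell type. Of the other marker lists, neutrophil genes summed to 24.8, 25.5, 94.7 and 12.8 normalized CPM in NK pools 1 and 2 and T pools 1 and 2, B cell genes to 23.6, 55.3, 34.7 and 46.1, and dendritic cell genes to 5.29, 7.09, 11.0 and 0.709. In the same order, erythroid genes summed to 0, 51.1, 0 and 4.61, platelet genes to 47.6, 39.0, 0 and 2.48, fibroblast genes to 8.95, 14.9, 0.551 and 0, and epithelial genes to 19.1, 50.3, 20.4 and 30.8. Genes for ribosomal RNA took 36.9% and 38.8% of the reads in the NK libraries and 52.4% and 42.7% in the T libraries. The ribosomal RNA genes of mitochondrial DNA are included in this share. The part of these other cells and of the ribosomal share in the differences below was not tested. In bulk samples, fewer cells of a type and less RNA per cell cannot be told apart.

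Of the 96 members, 79 reached a mean of 1 normalized CPM and were tested, and 11 had no read in any library. No member differed between NK and T cells past the threshold, in either direction. The test was limma on log2(value + 1) over 12128 genes, with a Benjamini-Hochberg adjusted p under 0.05 as the threshold. It called 1.24% of all genes as higher in NK cells and 1.09% as higher in T cells, and the lowest adjusted p of a member was 0.219. At an unadjusted p under 0.05, 8 members lay on the NK side and 1 (Cox7a2l) on the T side, where the shares of all genes were 6.51% and 6.3%. edgeR's quasi-likelihood test and DESeq2 on the recovered reads also called 0 members, in comparisons that called 1.42% and 1.31% of all genes (edgeR) and 1.76% and 1.79% (DESeq2) as higher in NK and in T cells. With no adjustment, edgeR had 6 members on the NK side and 1 on the T side at a p under 0.05, against 6.03% and 6.54% of all genes. DESeq2 had 5 and 1 members, against 4.95% and 5.36%. A log2 difference had a median standard error of 0.378 among the members.

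The members nevertheless lay mostly on the NK side. The log2 difference was above 0 for 62 of 79 members, against 50.9% of all genes tested, and the median log2 difference was 0.30 for the members and 0.02 for all genes. Both NK values lay above both T values for 31 members, where the share of all genes was 22.1%, and below both for 3 members (Ndufb11, Cox7a2l and Atp5l), where it was 21.3%. Summed over the 79 members, the level was 7688 and 6656 normalized CPM in NK pools 1 and 2 and 5543 and 5889 in T pools 1 and 2. Both NK sums were higher than both T sums, by 1.39-fold within pool 1 and 1.13-fold within pool 2. The median log2 difference was 0.40 within pool 1 and 0.14 within pool 2. NK lay above T within both pools for 48 members, where the share of all genes was 31.1%, and below T within both for 6, where it was 29.8%.

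**Figure D1:**
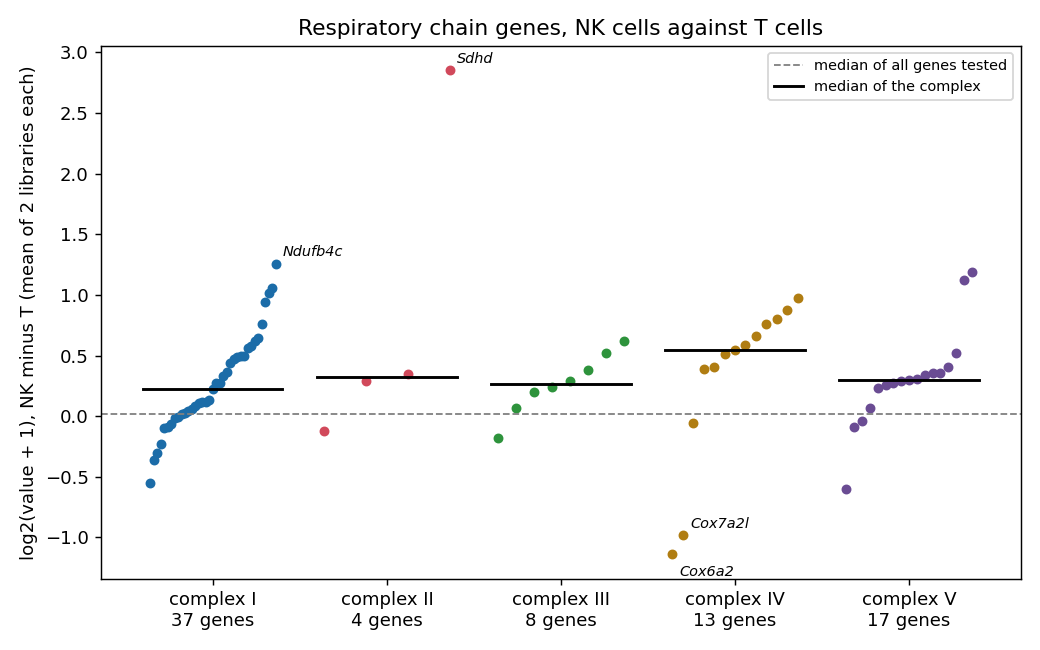
Log2 difference, NK minus T, of each of the 79 tested members (points, on log2(value + 1), mean of 2 libraries a group), ordered by size within each complex. Solid bars are the median of each complex, highest for complex IV at 0.55, and the dashed line is the median of all genes tested at 0.02.

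The complexes did not stand equally far to the NK side. The median log2 difference was 0.23 for complex I, 0.32 for complex II, 0.27 for complex III, 0.55 for complex IV and 0.30 for complex V. Within pool 1 these medians were 0.37, 0.40, 0.21, 0.52 and 0.36, and within pool 2 they were 0.10, 0.02, 0.14, 0.50 and 0.20. The median of complex IV was alike in both pools, while the medians of complexes I, II, III and V were smaller in pool 2. By summed level, however, the NK to T ratio of complex IV was also smaller in pool 2, at 1.22-fold against 1.51-fold in pool 1. The difference between complexes was not tested.

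**Figure D2:**
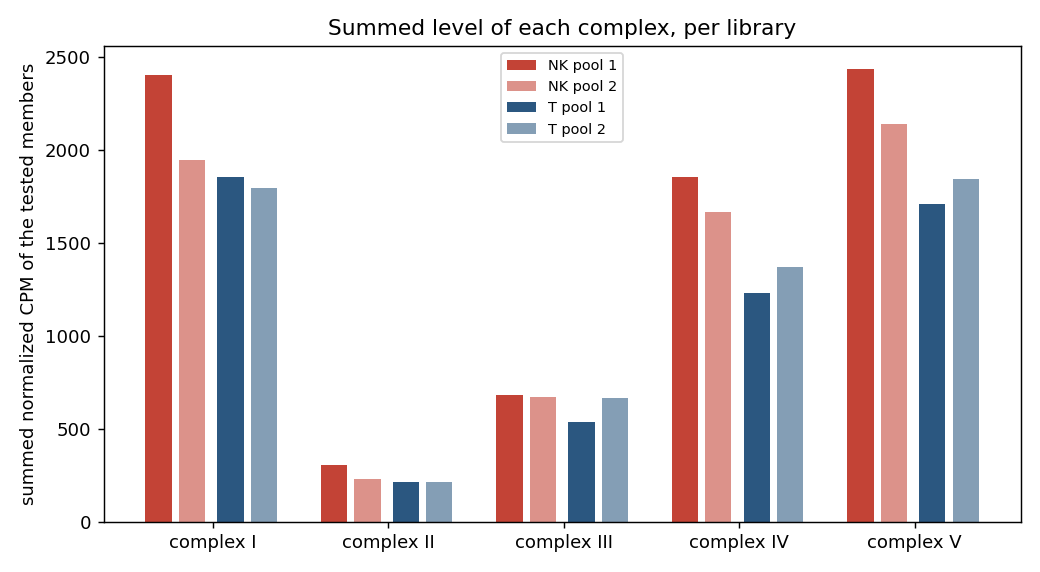
Summed normalized CPM of the tested members of each complex in the 4 libraries (bars, from 0). Complex IV summed to 1858 and 1668 in NK pools 1 and 2 and to 1231 and 1370 in T pools 1 and 2, and for complex III the pool 2 sums, 670 in NK and 666 in T, were close.

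Replicate numbers mark the pool of mice, so a fit with the pool as a block was also made. It called 6 members as higher in NK cells (Sdhd, Ndufa1, Atp5j, Ndufb3, Ndufa4 and Atp5md) and 1 as higher in T cells (Cox7a2l), in a comparison that called 4.26% and 3.97% of all genes. edgeR with the block called 4 and 1 of these, against 3.78% and 3.57% of all genes. With the block, 1 residual degree of freedom was left in each gene, so the spread rests largely on what is shared across genes, as the values of Sdhd below show.

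**Figure D3:**
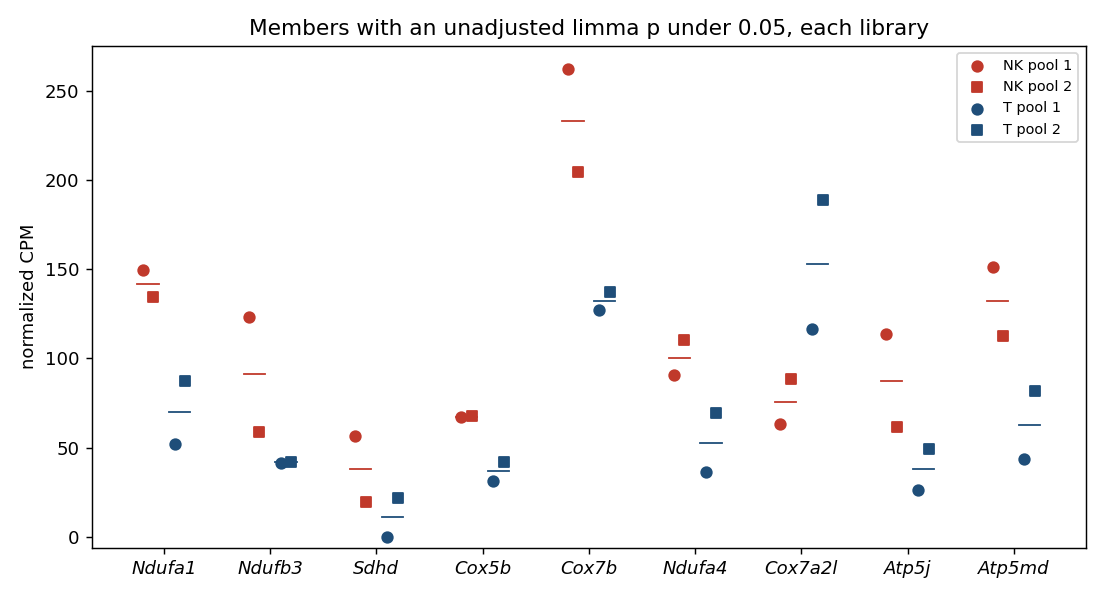
Normalized CPM in each library for the 9 members with an unadjusted limma p under 0.05 (points, circles for pool 1 and squares for pool 2, with lines at group means). NK and T points are apart for 8 of the 9 genes and overlap for Sdhd, whose T pool 1 value is 0.

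Complex I has a peripheral arm in the matrix, with an NADH-oxidizing N module and a ubiquinone-reducing Q module, and a membrane arm, whose proton-pumping core is encoded in mitochondrial DNA. Of its 37 tested members, 28 had a log2 difference above 0, where the share of all genes was 50.9%. Both NK values lay above both T values for 7 of the 37, no larger a share than the 22.1% of all genes. Ndufb11, a membrane arm subunit, was the only one with both below, where the share of all genes was 21.3%. All 8 tested genes of the N module had a log2 difference above 0, with a median of 0.36 and a range of 0.02 to 0.56, but 4 of the 8 were above 0 within both pools, and Ndufv1 was at -0.087 in edgeR and -0.10 in DESeq2. The median was 0.09 over the 8 genes of the Q module, 0.23 over the 9 genes of the proximal membrane arm and 0.12 over the 11 genes of the distal membrane arm.

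The nuclear core subunits carry the flavin and iron-sulfur clusters or line the ubiquinone site, and NK and T values overlapped for each of the 6 described here. Ndufv1, which binds NADH and the flavin, measured 22.0 and 25.5 normalized CPM in NK pools 1 and 2 and 35.2 and 15.2 in T pools 1 and 2. Ndufv2, an iron-sulfur subunit, measured 60.2 and 46.1 in NK and 28.1 and 49.3 in T pools 1 and 2. Ndufs1, the largest iron-sulfur subunit, measured 67.1 and 52.8 in NK and 33.0 and 55.3 in T pools 1 and 2. For the last 2 genes the NK value was higher in pool 1 and slightly lower in pool 2. Ndufs7, an iron-sulfur subunit next to ubiquinone, measured 25.6 and 17.0 normalized CPM in NK against 21.5 and 16.7 in T. Ndufs8, an iron-sulfur subunit, measured 30.9 and 21.3 in NK against 14.9 and 21.6 in T. Ndufs3, a core subunit of the Q module, had few reads, 10.2 and 11.7 normalized CPM in NK against 2.20 and 11.0 in T. Over these 6 genes the median log2 difference was 1.00 within pool 1 and 0.00 within pool 2. The 2 pools therefore gave different pictures of these subunits, and the lowest adjusted limma p among these genes was 0.648.

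Among the accessory subunits of complex I, Ndufa1 and Ndufb3 had the smallest p. Ndufa1 is a small membrane subunit needed for assembly of the enzyme (ENSMUSG00000016427.7, GRCm38 chromosome X, 37187588 to 37191163, minus strand). It measured 149 and 134 normalized CPM in NK pools 1 and 2 and 52.3 and 87.5 in T pools 1 and 2. Both NK libraries were above both T libraries, with a log2 difference of 1.05 (SE 0.36, n = 2 a group, limma adjusted p = 0.219, and 0.0132 with the pool as a block). Ndufb3, a subunit of the distal membrane arm (ENSMUSG00000026032.8, chromosome 1, 58586384 to 58595964, plus strand), measured 123 and 58.9 normalized CPM in NK and 41.3 and 42.2 in T. The T values were alike and the NK values were far apart, and the log2 difference was 1.01 (SE 0.42, limma adjusted p = 0.336, and 0.0409 with the block). For the 2 accessory subunits with the highest mean, NK and T values overlapped. Ndufa6, a Q module subunit, measured 217 and 144 normalized CPM in NK and 217 and 197 in T, a log2 difference of -0.23. Ndufb1-ps, which carries a pseudogene's symbol, measured 198 and 120 in NK and 79.8 and 149 in T. Its NK value was higher in pool 1 and lower in pool 2. Ndufb4c, a gene copy whose transcript shares all its 50-base words with other genes, had 5.69 and 1.06 normalized CPM in NK and 0 and 1.42 in T. Its reads cannot be told from those of its relatives.

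Complex II oxidizes succinate and is also an enzyme of the TCA cycle. Its flavoprotein Sdha measured 87.5 and 61.7 normalized CPM in NK pools 1 and 2 and 92.0 and 69.5 in T pools 1 and 2, so the groups overlapped, with a log2 difference of -0.12 (SE 0.36, limma adjusted p = 0.927). The iron-sulfur subunit Sdhb measured 107 and 90.1 in NK and 81.5 and 73.0 in T, and the membrane anchor Sdhc 51.3 and 56.0 in NK and 38.5 and 49.3 in T. For both of them the NK values were above the T values, with log2 differences of 0.35 (SE 0.34) and 0.29 (SE 0.38). The other anchor, Sdhd (ENSMUSG00000000171.5, chromosome 9, 50596357 to 50603812, minus strand), measured 56.5 and 19.9 normalized CPM in NK and 0 and 22.0 in T, from 139, 56, 0 and 62 reads. T pool 1 stood apart from the other libraries, and a count of 0 there allows up to 1.65 normalized CPM, by counting error only. The log2 difference of 2.85 (SE 1.16) had a limma adjusted p of 0.323, or 2.2e-05 with the block, but it was 5.85 within pool 1 and -0.14 within pool 2. Without T replicate 1 it was 0.59, and its size therefore rests on that library.

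By summed level, complex III was the closest to even within pool 2, at 1.01-fold, against 1.28-fold within pool 1. Its hinge protein Uqcrh measured 159 and 179 normalized CPM in NK and 168 and 219 in T pools 1 and 2, with a log2 difference of -0.18 (SE 0.31, limma adjusted p = 0.859). Uqcrq, a small subunit near cytochrome b, measured 116 and 118 in NK and 75.4 and 87.5 in T, a log2 difference of 0.52 (SE 0.33, limma adjusted p = 0.560). NK and T values overlapped for Uqcrh and were apart for Uqcrq. In all, 4 of the 8 tested members had both NK values above both T values (Uqcrq, Uqcrb, Uqcr10 and the core protein gene Uqcrc1). The share of all genes was 22.1%. The Rieske protein gene Uqcrfs1, whose iron-sulfur cluster takes electrons from ubiquinol, measured 101 and 91.5 normalized CPM in NK and 54.0 and 101 in T, so T pool 1 alone was low.

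Complex IV had the largest share of members apart, with both NK values above both T values for 9 of 13, where the share of all genes was 22.1%. Cox7b, a small membrane subunit (ENSMUSG00000031231.4, chromosome X, 106015700 to 106022450, plus strand), measured 262 and 204 normalized CPM in NK pools 1 and 2 and 127 and 137 in T pools 1 and 2. The log2 difference was 0.80 (SE 0.31, limma adjusted p = 0.295, and 0.0671 with the block). Ndufa4, a peripheral subunit, measured 90.7 and 110 in NK and 36.3 and 69.5 in T, a log2 difference of 0.98 (SE 0.40, limma adjusted p = 0.325, and 0.0409 with the block). Cox5b, the zinc-binding subunit, measured 67.1 and 67.7 in NK and 31.4 and 42.2 in T, a log2 difference of 0.87 (SE 0.38, limma adjusted p = 0.357). These 3 genes were higher in NK cells within each pool, by 0.57 to 1.30 on the log2 scale, and so were Cox5a, Cox6a1, Cox6b1, Cox6c, Cox7a2, Cox7c and Cox8a.

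The 2 members of complex IV with the highest mean lay nearer to 0. Cox6c measured 249 and 222 normalized CPM in NK and 186 and 172 in T, a log2 difference of 0.39. Cox5a, which lies on the matrix side, measured 251 and 195 in NK and 144 and 159 in T, a log2 difference of 0.55. Cox4i1, the largest nuclear subunit, was even between the groups, at 103 and 125 in NK and 106 and 131 in T, a log2 difference of -0.05 (SE 0.33, limma adjusted p = 0.966). Its values separated the pools rather than the cell types.

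Several subunits of complex IV exist as a widely expressed form and a tissue form, and in these cells nearly all reads fell on the former. Cox8a measured 114 and 108 normalized CPM in NK and 73.2 and 66.3 in T, Cox7a2 152 and 146 against 108 and 90.4, Cox6a1 126 and 128 against 105 and 87.5, and Cox6b1 157 and 104 against 109 and 73.0. The first 3 had both NK values above both T values, and Cox6b1 overlapped. Cox4i2 (lung and hypoxia form), Cox7b2 and Cox8c (testis forms), Cox8b (heart and muscle form) and Ndufa4l2 (a hypoxia-induced relative of Ndufa4) had 0 reads in all 4 libraries, which allows up to 1.06 to 1.65 normalized CPM a library. Cox7a1, a heart and muscle form, had 1 and 1 reads in NK and 0 and 2 in T, and Cox6b2, a testis form, had 0 and 3 in NK and 0 and 0 in T. Cox6a2, another heart and muscle form, had 0 and 1 reads in NK pools 1 and 2 and 7 and 1 in T pools 1 and 2. These counts are at or near the floor and give no direction.

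Cox7a2l, also known as Scaf1, joins complexes III and IV into a supercomplex, and its log2 difference was on the T side (ENSMUSG00000024248.14, chromosome 17, 83501918 to 83517330, minus strand). It measured 63.0 and 88.6 normalized CPM in NK pools 1 and 2 and 117 and 189 in T pools 1 and 2. Both T libraries were above both NK libraries. The mean was 75.8 ± 18.1 in NK and 153 ± 50.7 in T (SD, n = 2 each). The log2 difference was -0.98 (SE 0.37, limma adjusted p = 0.277, and 0.0241 with the block), and it was -0.88 within pool 1 and -1.08 within pool 2. It was the only member with an unadjusted p under 0.05 in this direction. Its relative Cox7a2 had a log2 difference of 0.59 (SE 0.32, limma adjusted p = 0.501), and a difference between the 2 genes was not tested. With Cox7a2l set aside, the median log2 difference of complex IV was 0.57.

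**Figure D4:**
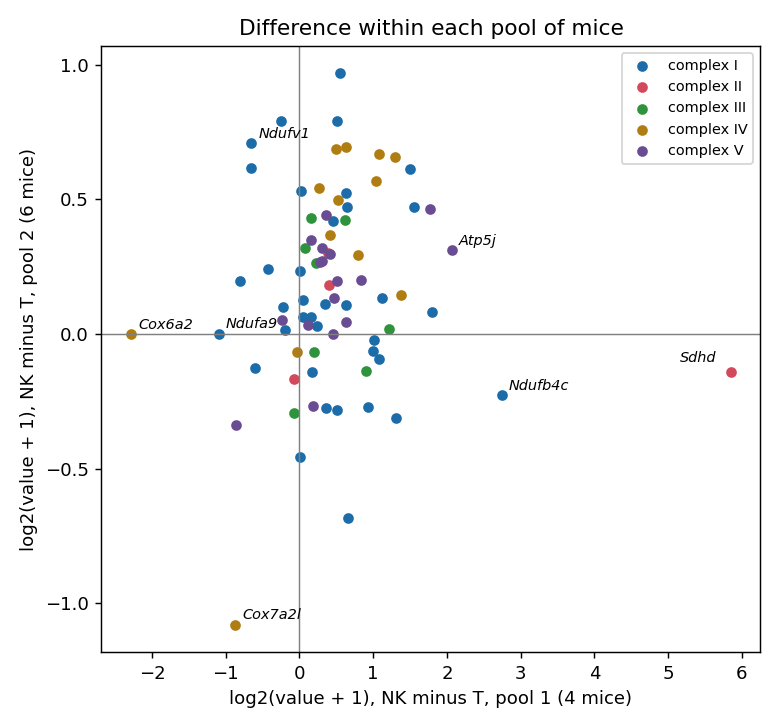
Log2 difference, NK minus T, within pool 1 (x axis, 4 mice) and within pool 2 (y axis, 6 mice), each from 1 library a cell type, for the 79 tested members coloured by complex; the 2 axes have different ranges. In the upper right are 48 members, higher in NK within both pools, and in the lower left are 6, with Cox7a2l at -0.88 and -1.08.

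Complex V couples a catalytic F1 head in the matrix to a membrane ring of c subunits through a central and a peripheral stalk. The 5 tested F1 genes were Atp5a1 (alpha), Atp5b (beta), Atp5c1 (gamma), Atp5d (delta) and Atp5e (epsilon). All 5 had both NK values above both T values, where the share of all genes was 22.1%. Their log2 differences were 0.23 to 0.40, with a median of 0.35. For Atp5c1, however, the pool 2 values were nearly equal, 48.2 normalized CPM in NK and 48.2 in T, from 136 reads in each library. Atp5a1 measured 407 and 408 normalized CPM in NK pools 1 and 2 and 329 and 337 in T pools 1 and 2, so replicates were close. Its log2 difference was 0.29 (SE 0.28, limma adjusted p = 0.729). The lowest adjusted p among the F1 genes was 0.659.

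The c ring is encoded by 3 genes whose mature proteins are the same. Atp5g3 measured 460 and 376 normalized CPM in NK and 257 and 327 in T, a log2 difference of 0.52 (SE 0.30, limma adjusted p = 0.535), with the NK libraries above the T libraries. Atp5g1 measured 4.88 and 3.19 in NK and 3.85 and 2.48 in T, and Atp5g2 3.25 and 2.48 in NK and 2.75 and 3.19 in T. Both overlapped between the groups. Per kilobase of transcript, Atp5g3 was at 497 normalized CPM per kb, Atp5g1 at 6.04 and Atp5g2 at 6.62. In the transcripts used here, 66.0% of the 50-base words of Atp5g1 and 100% of those of Atp5g2 also occur in other genes, against 0% for Atp5g3, and the sources used here do not say how the counting treated such reads.

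In the stalk and the membrane part of complex V, Atp5j and Atp5md had the smallest p. Atp5j, coupling factor 6 of the peripheral stalk (ENSMUSG00000022890.13, chromosome 16, 84827866 to 84835625, minus strand), measured 114 and 61.3 normalized CPM in NK and 26.4 and 49.3 in T. The groups did not overlap, but the log2 difference of 1.19 (SE 0.45, limma adjusted p = 0.277, and 0.0121 with the block) was 2.07 within pool 1 and 0.31 within pool 2. Its exons overlap those of Gabpa on the other strand by 397 bases, and Gabpa measured 50.4 and 40.1 normalized CPM in NK and 11.0 and 47.1 in T. Without a known strand setting the reads of the overlap cannot be told apart. Atp5md, a small subunit of the dimer interface known as DAPIT (ENSMUSG00000071528.4, chromosome 19, 47083464 to 47090647, minus strand), measured 151 and 113 in NK and 43.5 and 81.5 in T. Both NK libraries were above both T libraries, with a log2 difference of 1.12 (SE 0.39, limma adjusted p = 0.233, and 0.00842 with the block). Atp5l, the g subunit, was at 14.6 and 12.4 normalized CPM in NK and 27.5 and 15.9 in T, and 68.5% of its 50-base words occur in other genes.

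Levels per kilobase ranged widely among the members. The highest were Atp5g3 at 497 normalized CPM per kb, Atp5mpl at 465, Cox6c at 412 and Atp5k at 353. The lowest were Cox6a2 at 1.68, Ndufs5 at 3.57, the gene copy Ndufb4c at 5.24, Atp5g1 at 6.04 and Atp5g2 at 6.62. Among the 78 tested subunit genes, the 40 with no 50-base word in another gene had a median of 76.4 normalized CPM per kb. The median was 86.9 over the 21 genes with some but under 20% of their words shared, and 64.7 over the 12 with 20% to under 50%. It was 32.4 over the 5 with at least 50% of their words in other genes (Cox7c, Atp5g1, Atp5g2, Atp5h and Atp5l), which ranged from 6.04 to 292. The median thus did not fall at every step. Of the low genes, Ndufs5, a complex I subunit, shares 41.2% of its words and Ndufs3 35.8%. The median log2 difference, NK minus T, was 0.34 over the 40 members with no shared word and 0.29 over the 39 with any. The log2 difference was below 0 for 7 of the 40 and 10 of the 39, against 5953 of all 12128 genes tested. The 3 members with both T values above both NK values were among the 39. These differences were not tested.

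**Figure D5:**
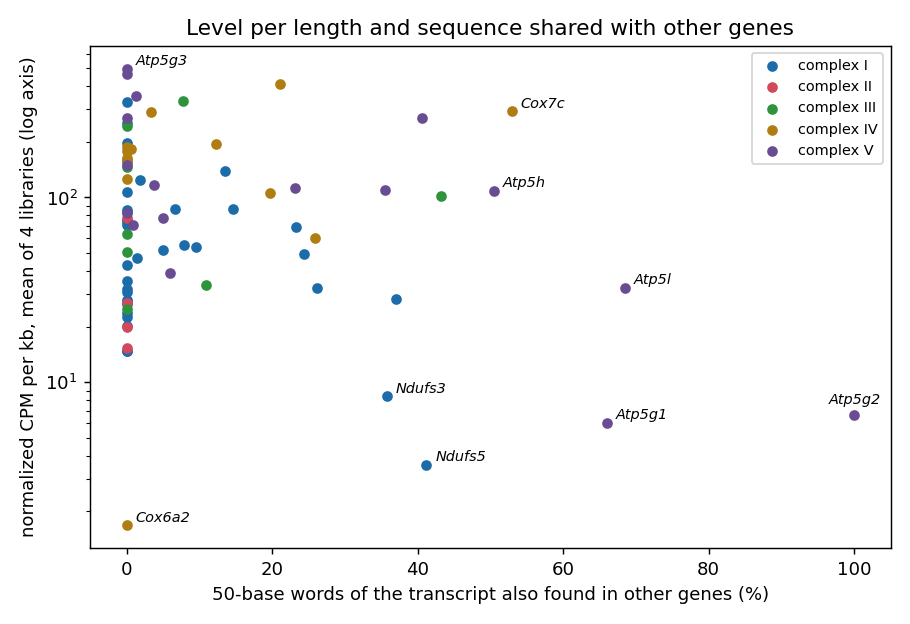
Level of each of the 78 tested subunit genes in normalized CPM per kb (log axis, mean of 4 libraries) against the share of its transcript's 50-base words that also occur in other genes. The tested gene copy Ndufb4c is not plotted. Atp5g3 lies at 497 per kb with 0% shared, and Atp5g2 at 6.62 per kb with 100% shared.

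Nuclear subunit genes are known targets of the factors NRF1, of GABP and other ETS proteins, and of YY1, so the promoter windows of the members were searched. RefSeq windows of GRCm38.p6, 250 bases before to 50 bases after the start, were matched by symbol for 63 of the 79 tested members. The NRF1-type word GCGCNTGCG, on either strand, was in 22 of 63 member windows (34.9%), 15.0% of windows of tested genes and 6.59% of all windows. A form longer by a C at its 3′ end, searched before the shorter word, was in 16 of 63 (25.4%), 11.3% and 4.78%. The ETS-type word CCGGAAG was in 25.4% of member windows, 20.4% of those of tested genes and 9.12% of all. The YY1-type word AAGATGGCG was in 6 members (9.52%), 3.64% of tested genes and 1.5% of all windows. A match is a run of letters and not a measured binding site. Of the 9 members with an unadjusted p under 0.05, Sdhd held both an NRF1-type and an ETS-type word, Atp5md held an ETS-type word and the shorter NRF1-type word, and the other 7 held none in this window. The 120 bases before the RefSeq start are shown for Sdhd, with matches in capitals, and for Ndufa1 and Cox7b, which had both NK values above both T values and no match. They lie at chr9:50603850-50603969 (minus strand), chrX:37191239-37191358 (minus strand) and chrX:106015580-106015699 (plus strand), and are written 5′ to 3′ on the gene's strand.
Sdhd: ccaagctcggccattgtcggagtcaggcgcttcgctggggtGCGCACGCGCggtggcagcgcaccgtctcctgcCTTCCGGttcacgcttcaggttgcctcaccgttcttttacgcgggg
Ndufa1: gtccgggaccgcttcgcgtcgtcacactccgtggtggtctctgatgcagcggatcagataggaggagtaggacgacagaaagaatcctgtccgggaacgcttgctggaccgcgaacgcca
Cox7b: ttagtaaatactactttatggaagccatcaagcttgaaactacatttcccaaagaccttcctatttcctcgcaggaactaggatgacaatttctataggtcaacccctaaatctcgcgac

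The rest of the pathway was described from lists of other genes. No gene of any of these lists passed the limma threshold, which called 1.24% of all genes as higher in NK cells and 1.09% as higher in T cells. The list of electron carriers and of subunits that the symbol rule leaves out held 14 tested genes. The log2 difference was above 0 for 12 of them, against 50.9% of all genes tested, and the median was 0.64. Gpd2, the mitochondrial glycerol-3-phosphate dehydrogenase that feeds electrons to ubiquinone, measured 109 and 100 normalized CPM in NK pools 1 and 2 and 28.6 and 71.9 in T pools 1 and 2, a log2 difference of 1.18 (SE 0.45, limma adjusted p = 0.277). Atpif1, the inhibitor of ATP synthase, measured 75.2 and 48.2 in NK and 54.5 and 43.2 in T, a log2 difference of 0.31. The NK values lay above the T values for Gpd2 and overlapped with them for Atpif1. The TCA cycle supplies NADH and succinate, and its list here also held genes of the pyruvate dehydrogenase complex. In that list 15 of 18 genes were above 0, against the same 50.9% of all genes, and the median log2 difference was 0.45. Mdh2, mitochondrial malate dehydrogenase, measured 122 and 109 normalized CPM in NK and 93.1 and 110 in T, and Pdha1, of the pyruvate dehydrogenase complex, measured 70.0 and 58.5 in NK and 103 and 71.6 in T.

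Among the assembly factors, a log2 difference above 0 was seen in 10 of 17 complex I factors (median 0.09), 6 of 10 factors of complexes II and III (median 0.09), 15 of 24 complex IV factors (median 0.23) and 3 of 5 complex V factors (median 0.41). The share of all genes tested was 50.9% (median 0.02), and these counts were not far above it. The 2 most abundant in each list were Ndufaf4 and Ndufaf8, with log2 differences of 0.09 and -0.24, Uqcc3 and Sdhaf2, with -0.51 and 0.75, Cox20 and Coa5, with 0.25 and -0.29, and Tmem242 and Fmc1, with 0.77 and 0.41. The mitochondrial ribosome, which translates the subunits encoded in mitochondrial DNA, had 52 of 78 genes above 0, against the same 50.9% of all genes, and a median of 0.20. Its most abundant genes Mrpl33 and Mrpl18 had log2 differences of 0.56 and 0.11.

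Regulators of mitochondrial transcription were split, with 10 of 21 tested genes above 0, where the share of all genes was 50.9%. Their median log2 difference was -0.16. Hif1a, the hypoxia factor, measured 216 and 213 normalized CPM in NK and 607 and 316 in T, a log2 difference of -1.03 (SE 0.35, limma adjusted p = 0.218), and Yy1 measured 142 and 197 in NK and 201 and 264 in T. Both NK values were below both T values for Hif1a and Yy1.

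Of the 13 subunits encoded in mitochondrial DNA, 7 were tested and none was called, where 1.24% and 1.09% of all genes were called higher in NK and in T cells. The median log2 difference of the 7 was 0.09. The median was 0.49 within pool 1 and -0.37 within pool 2, so the pools went opposite ways. The 2 with the highest mean were mt-Nd4, at 4209 and 3923 normalized CPM in NK pools 1 and 2 and 3006 and 4836 in T pools 1 and 2, and mt-Nd2, at 3233 and 3787 in NK and 3001 and 5131 in T. Both are complex I subunits, and their NK and T values overlapped. The other 6 (mt-Co2, mt-Co3, mt-Atp6, mt-Atp8, mt-Nd3 and mt-Nd4l) were listed at 0 in all 4 libraries. Except for mt-Atp8, whose words are not shared, 98.0% to 100% of their 50-base words also occur in other genes. Of the tested subunits, mt-Nd4 shares 62.2% of its words, mt-Co1 51.1% and the others 0% to 8.19%. How shared words bear on the zeros was not tested. The zeros are not read as absence, and the balance of nuclear and mitochondrial subunits was not computed.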

How the data were processed

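Total RNA was sequenced from 4 libraries, NK and T cells of pools 1 and 2. Per the submitters' processing notes, STAR 2.7.0f, Bowtie2 2.3.4.1, FastQC, limma and the build GRCm38.p6 were used, in roles the notes as given here do not state, nor the counting tool or strand setting. The deposited table holds a normalized signal without length correction. In the deposited values, 100% of entries were whole multiples of the library's single-read value (tolerance 0.001 reads), and the totals gave scaling factors of 0.878 to 1.10, equal to TMM factors recomputed from the reads. The value is called normalized CPM. Rows without a gene name (0.0198% to 0.0214% of reads) were kept under their gene ID. The 27 symbols turned into dates were restored.

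Genes with a mean of at least 1 entered a fit with limma 3.58.1 (R 4.3.3, lmFit, eBayes with trend, log2(value + 1), NK minus T, two-sided, Benjamini-Hochberg over 12128 genes). Fold changes are on that scale, which understates low genes. Alternatives were a replicate block, edgeR 4.0.16 and DESeq2 1.42.0 on the recovered reads, other scalings, pseudocounts and filters, and leaving out each library. The scripts were checked on simulated data, with a spread that was set and not taken from these libraries. There limma recovered 20.9% of 2-fold changes and 95.5% of 4-fold changes. The design text ties replicate numbers to pools of 4 and 6 mice; pool 1 minus pool 2 correlated between NK and T cells with r = 0.161 across 12128 genes, which are not independent. The p-values measure the spread between 2 pools a group.

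Coordinates, transcript lengths and shared 50-base words came from GENCODE M21 (GRCm38). Members and lists were chosen with earlier results of these data known. Named members were, per complex, up to 3 per direction with the smallest unadjusted p under 0.05, the 2 with the highest mean, isoform sets, all Sdh genes and complex I core genes (1 gene is not reported here), and the 2 most abundant genes of other lists; further members were named for counts or roles, Ndufb4c, Atp5l, Uqcrfs1, Ndufb11, Ndufs5 and Gabpa among them, after their values were seen.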

Additional observations from a re-analysis of the deposited data

How the results depend on the processing

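With the replicate block, limma called 517 genes as higher in NK cells and 482 as higher in T cells, 6 and 1 of them members, and edgeR with the block called 459 and 433, 4 and 1 of them members. DESeq2 called 217 genes as higher in T cells. Library totals without TMM factors left 79 genes higher in T cells and shifted the median log2 difference of all genes from 0.02 to 0.22. On that scaling the medians were 0.52 for all members, 0.45 for complex I, 0.48 for complex III, 0.77 for complex IV and 0.53 for complex V, and the members' median relative to all genes was 0.29, against 0.28 as reported. Complex IV had a median of 0.52 without ribosomal and mitochondrial reads in the totals, 0.52 with no filter, 0.57 with a filter at 10, and 0.53 with Ndufa4 counted in complex I, an alternative added after seeing the data. Leaving out each library in turn, limma called 0 genes in each direction, edgeR (added after seeing the data) called 159 to 267 higher in NK and 164 to 232 higher in T cells, among them 205 higher in T without NK replicate 2, 260 and 211 higher in NK and T without T replicate 1, and 267 and 232 without T replicate 2. It called 0 to 1 members, which was Sdhd without NK replicate 2 or T replicate 2. In limma, the median with a library left out ranged from 0.22 to 0.42 for all members. It ranged from 0.20 to 0.39 for complex III and from 0.42 to 0.70 for complex IV. Without NK replicate 1, no member had an unadjusted limma p under 0.05.

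Some members changed sign, and the cause was not tested. Most of them lay near 0, but Ndufs3 had a log2 difference of 0.94 over all 4 libraries. Without TMM factors the log2 difference was 0.12 for Atp5g2, 0.17 for Cox4i1, 0.10 for Sdha and 0.039 for Uqcrh. Ndufv1 was at -0.087 in edgeR, -0.10 in DESeq2 and -0.0028 without ribosomal and mitochondrial reads in the totals. Leaving out each library in turn gave a range of -0.19 to 0.10 for Atp5g2, -0.21 to 0.10 for Cox4i1, -0.52 to 0.070 for Ndufa6, -0.0090 to 1.90 for Ndufs3, -0.14 to 0.42 for Ndufs7, -0.55 to 0.60 for Ndufv1, -0.37 to 0.13 for Sdha and -0.37 to 0.0072 for Uqcrh. With 2 libraries a group, members at few reads, such as Ndufs3, Atp5g1 and Cox6a2, had standard errors of 0.71 to 0.95.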

Other observations

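Exons of 30 tested members overlap exons of another gene, and the median log2 difference was 0.12 over these members and 0.35 over the 49 without such an overlap. A log2 difference above 0 was seen in 19 of the 30 and in 43 of the 49, against 50.9% of all genes tested. The split was made after the values were seen, and the difference was not tested.

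Some pathway genes outside the naming rule had an unadjusted limma p under 0.05 and did not pass the adjusted threshold. Fh1, fumarate hydratase of the TCA cycle, measured 37.8 and 29.8 normalized CPM in NK pools 1 and 2 and 16.5 and 12.8 in T pools 1 and 2 (limma adjusted p = 0.298). Uqcc2, an assembly factor of complex III, measured 27.7 and 19.9 in NK and 9.36 and 7.80 in T (limma adjusted p = 0.274). Ssbp1, which binds single-stranded mitochondrial DNA, measured 50.4 and 27.7 in NK and 7.71 and 24.4 in T (limma adjusted p = 0.348). All 3 had both NK values above both T values, and they were chosen after their values were seen.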
